A study of Mus musculus with 32 samples.

Results

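The Iroquois genes Irx1, Irx2, Irx3, Irx4, Irx5 and Irx6 were followed through the first days of retinal organoid culture from mouse embryonic stem cells with and without Mettl3. All 6 genes of the family were taken by name from a deposited table of 55492 rows. The family was selected on the FPKM of Mettl3 knockout and wild-type cultures at day 6, where Irx1 and Irx2 were among the genes with the largest rise. That contrast, and every contrast that uses the wild-type or knockout libraries of day 6, is therefore given as a description with no test. Polyadenylated RNA was sequenced from 4 kinds of culture at days 0, 2, 4 and 6, day 0 being stem cells, with 2 libraries in each of 16 groups.

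The wild type was the Rx:GFP line, named for a fluorescent reporter of the Rx gene. The knockout was labelled Mettl3 KO. METTL3 is the methyltransferase that places N6-methyladenosine (m6A) on messenger RNA. The remaining cultures were the knockout overexpressing wild-type METTL3 fused to a domain labelled GRBD, grown without or with dexamethasone (Dex, 10 µM), a synthetic glucocorticoid. The labels place the fusion protein in the cytosol without Dex and in the nucleus with it, so both fusion cultures share the knockout background and the transgene and differ in Dex. No label gives the same Dex to wild-type or knockout cells without the fusion, so an action of Dex itself on the Iroquois genes cannot be told apart from that of the fusion protein. The medium held a compound labelled AGN (0.1 µM) at days 2, 4 and 6. The protocol gives Dex treatments of 2, 4 and 6 days, although samples of day 0 are also labelled as treated with Dex, and the labels were followed. Whether the knockout or the fusion line is 1 clone, and whether duplicates were separate cultures, is not given in the sources used here. The p-values therefore measure only the spread between these libraries.

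Iroquois genes encode transcription factors with a homeodomain of the TALE class, which carries extra residues in the loop between its helices. In vertebrates they lie in paired clusters that arose by duplication, Irx1 with Irx2 and Irx4, and Irx3 with Irx5 and Irx6, whose members often share enhancers and patterns. In the early neural plate Iroquois genes mark tissue behind the anterior forebrain. There, Irx3 and the forebrain and eye field factor Six3 are known to repress each other, with the border between them lying within the diencephalon. Irx4 is best known from the ventricle of the heart, and Irx5 and Irx6 are also known from bipolar cells of the mature retina.

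Positions are those of the GENCODE M21 annotation of GRCm38, the mm10 build. Irx1 (ENSMUSG00000060969) lies on chromosome 13 from 71957921 to 71963723 on the minus strand. Irx2 (ENSMUSG00000001504) lies from 72628820 to 72634198 and Irx4 (ENSMUSG00000021604) from 73260479 to 73269608 on the plus strand of that chromosome. Irx3 (ENSMUSG00000031734) lies on chromosome 8 from 91798525 to 91802067 on the minus strand. Irx5 (ENSMUSG00000031737) lies from 92357625 to 92376286 and Irx6 (ENSMUSG00000031738) from 92674288 to 92680956 on the plus strand of chromosome 8. All 6 are annotated as protein coding. The antisense gene Irx3os overlaps Irx3, and Gm45505 overlaps Irx6 on the opposite strand. Whether fragments were counted by strand is not given in the sources used here, so reads of these pairs cannot be told apart.

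The genes resemble each other most within the homeobox. The stretch of 69 coding bases that is most alike across the family is shown for each member, since it bears on whether a read can be placed on the right gene. Each sequence runs 5′ to 3′ in the longest coding transcript of GENCODE M21, and capitals mark the 6 positions at which at least 1 member differs.
Irx1: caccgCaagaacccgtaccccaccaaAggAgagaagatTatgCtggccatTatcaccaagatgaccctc
Irx2: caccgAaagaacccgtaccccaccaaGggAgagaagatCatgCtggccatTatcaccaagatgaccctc
Irx4: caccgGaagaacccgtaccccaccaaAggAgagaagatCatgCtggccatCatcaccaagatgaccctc
Irx3: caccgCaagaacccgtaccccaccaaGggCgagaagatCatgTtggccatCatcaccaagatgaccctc
Irx5: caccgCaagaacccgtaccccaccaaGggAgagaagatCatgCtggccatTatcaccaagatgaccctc
Irx6: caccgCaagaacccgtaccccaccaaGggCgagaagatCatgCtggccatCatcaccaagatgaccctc
The stretch starts at coding base 445 in Irx1, 409 in Irx2, 454 in Irx3, 493 in Irx4, 400 in Irx5 and 493 in Irx6. The remaining 63 positions carried the same base in all 6 genes, and pairs of members were identical at 92.8% to 98.6% of positions. Irx2 and Irx5, of different clusters, differed at a single position, as did Irx3 and Irx6. The longest run shared without a mismatch by any pair of transcripts was 88 bases, between Irx3 and Irx6, followed by 65 bases between Irx2 and Irx5. Reads were 150 bases from each end, so no read can lie wholly in a run common to a pair of members. How the authors treated fragments that fit several genes is not given in the sources used here, and a small share of such fragments in the low values of Irx6 was not tested.

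GGACT, a common form of the sequence in which m6A is placed, was counted in the longest coding transcript of each member. Irx6 held 7 copies, Irx3 held 3, Irx1, Irx2 and Irx4 held 2 each, and Irx5 held 0. Per kilobase, Irx6 had 2.08 and Irx3 1.15 copies, against a median of 1.02 over 21584 coding genes. A match is a sequence of letters only, and methylation was not measured in these libraries.

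The shallowest library held about 29.3 M and the deepest about 52.3 M fragments (M, mega). Their median was 38.7 M. Over the members and these libraries, 3 fragments on a transcript corresponded to between 0.0188 and 0.0498 FPKM, the deposited unit, which scales fragments by transcript length and library size. The highest library value rested on about 14801 fragments for Irx1 and on about 32 fragments for Irx6. Across the genes with at least 1 FPKM in at least 2 libraries, duplicate libraries had Pearson correlations of 0.9922 to 0.9955 on log2(FPKM + 1). Mettl3 itself was not lower in the knockout, at 43.36 against 34.98 FPKM at day 0 and 37.6 against 35.7 FPKM at day 6 (means of 2), so the knockout is known from its label alone. The stem cell markers Pou5f1, Nanog, Zfp42, Esrrb and Klf4 were together at 1697 to 1952 FPKM in all day 0 libraries and at 25.8 to 75.8 FPKM at day 6. Cultures labelled as retinal organoids reached an eye field and retina marker sum of 556 to 587 FPKM in the wild type at day 6, with 6 of 6 markers at 1 FPKM or more. Since these are bulk samples, fewer cells of a type and less RNA per cell cannot be told apart for any gene below.

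The 4 abundant members, Irx1, Irx2, Irx3 and Irx5, were low in all stem cell groups and reached their highest levels in the knockout. Irx1 averaged 149 FPKM in the knockout at day 6, followed by 42.0 in the fusion line without Dex at day 6, 30.1 in the knockout at day 4 and 23.5 in the fusion line without Dex at day 4. Irx2 followed the same order of groups, with 103, 35.2, 17.5 and 10.6 FPKM. For these 2 genes no neighbouring groups among the top 4 overlapped between libraries.

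Irx3 and Irx5 had another order. Irx3 averaged 96.8 FPKM in the knockout at day 6 and 95.6 FPKM at day 4, which overlapped, then 58.5 FPKM in the fusion line without Dex at day 4 and 24.3 FPKM at day 6. Irx5 averaged 68.9, 53.6, 25.8 and 16.1 FPKM in the same 4 groups, none of which overlapped with the next. Irx4 did not exceed 1.17 FPKM and Irx6 did not exceed 0.24 FPKM in any library.

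**Figure D1:**
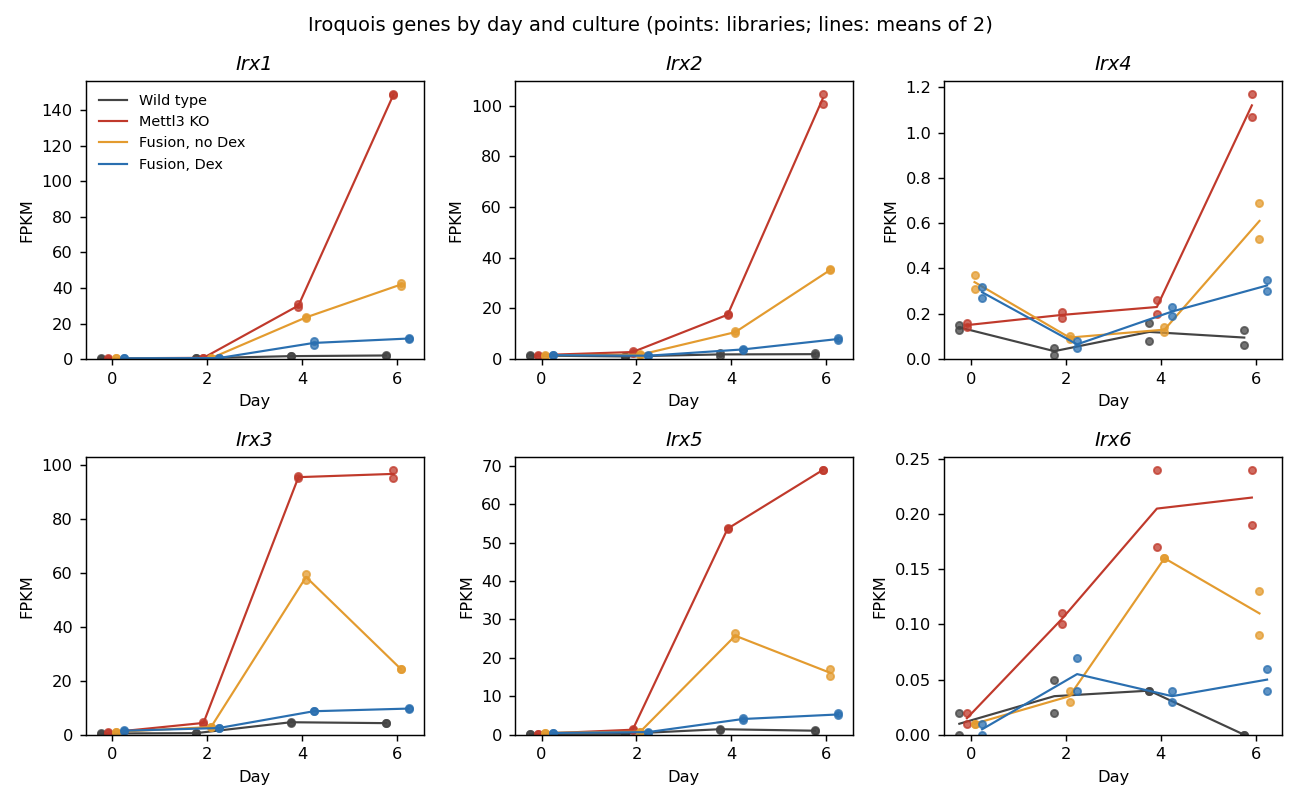
FPKM of each Iroquois gene (vertical axes, each with its own scale) against the day of culture, with points for the 2 libraries of a group and lines through their means. Knockout values stand highest at day 6 in all 6 panels, at a mean of 149 FPKM for Irx1 and 0.215 FPKM for Irx6, and Irx3 and Irx5 are lower at day 6 than at day 4 in the fusion line without Dex.

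In the wild type the family stayed low throughout and 4 members rose modestly between days 2 and 4. Irx3, the most abundant member there from day 4 on, read 0.59 and 0.63 FPKM at day 2 and 4.40 and 4.91 FPKM at day 4. The day 4 libraries lay above both day 2 libraries without overlap. Tests are by limma on log2(FPKM + 1), adjusted over all tested genes, and changes are given on that scale. A gene was tested where at least 2 libraries reached 1 FPKM. Irx4 met this only in the knockout at day 6 (1.17 and 1.07 FPKM), a group of the contrast that chose the family, so counts are given over Irx1, Irx2, Irx3 and Irx5, which met it without the wild-type and knockout libraries of day 6. Irx4 is described by its values, with its tests from a fit of all genes given together with those of Irx6. Irx3 rose by 1.81 (SE 0.058, adjusted p = 2.15e-15), Irx5 by 0.95 (adjusted p = 2.91e-08), Irx1 by 0.88 (adjusted p = 1.31e-06) and Irx2 by 0.46 (adjusted p = 0.00979). All 4 were thus called, against 59.9% of the 16276 tested genes that were called in either direction and 34.3% called higher. The rise of Irx2 was not called without the second library of day 2 (adjusted p = 0.0794) or of day 4 (adjusted p = 0.237), nor in a fit of these groups alone (adjusted p = 0.132), and it was 0.22 without the latter and 0.70 without the other day 4 library.

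Between days 0 and 2 in the wild type limma called 0 of the 4 members, and 0 had an unadjusted p under 0.05, against 63.4% of all tested genes called and 36.0% called lower. Irx3 was called over this step with a pseudocount of 0.1 (adjusted p = 0.00663) and after rescaling (adjusted p = 0.0448). Irx4 read 0.13 and 0.15 FPKM at day 0 and 0.02 and 0.05 FPKM at day 2. Between days 4 and 6, given without a test, the wild type averaged 1.66 and 2.03 FPKM for Irx1, 1.85 and 1.95 for Irx2, 4.66 and 4.32 for Irx3, and 1.45 and 1.06 for Irx5.

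The knockout was compared with the wild type on each day. In this comparison loss of Mettl3 cannot be told apart from other differences between the lines. At day 0, as stem cells, only Irx3 passed the test among the 4 members, against 48.2% of all tested genes called and 18.4% called higher. Irx3 read 0.80 and 0.88 FPKM in the knockout and 0.51 and 0.46 FPKM in the wild type. The libraries did not overlap, and the difference was 0.31 (SE 0.058, limma adjusted p = 0.000189). The libraries of Irx1, Irx2, Irx4 and Irx5 overlapped between the groups, with log2 differences from 0.01 to 0.16.

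By day 2 the knockout was higher in Irx2, Irx3 and Irx5, 3 of the 4 members, while 58.9% of all tested genes were called and 37.5% were called higher. Irx3 read 4.67 and 4.13 FPKM against 0.59 and 0.63 in the wild type, a ratio of means of 7.21 and a log2 difference of 1.74 (SE 0.058, limma adjusted p = 1.23e-14). Irx5 read 1.17 and 1.47 against 0.25 and 0.28 FPKM, with a difference of 0.87 (adjusted p = 1.12e-07). Irx2 read 2.39 and 3.19 against 1.15 and 0.94 FPKM, with a difference of 0.88 (adjusted p = 2.82e-05).
Every knockout library of these 3 genes lay above every wild-type library. Irx4 read 0.21 and 0.18 against 0.02 and 0.05 FPKM, levels of a few fragments in the wild type. Irx1 read 0.71 and 0.68 against 0.51 and 0.38 FPKM, which did not overlap but did not pass the test (adjusted p = 0.0845).

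At day 4 the abundant members stood apart by an order of magnitude. Irx5 read 53.8 and 53.5 FPKM in the knockout and 1.33 and 1.57 in the wild type, a ratio of means of 37.0. Irx3 read 95.1 and 96.0 against 4.40 and 4.91 FPKM, a ratio of 20.5. Irx1 read 31.1 and 29.2 against 1.74 and 1.58 FPKM, a ratio of 18.2.
Irx2, the least changed of the 4, read 17.8 and 17.3 against 1.38 and 2.31 FPKM, a ratio of 9.50. All knockout libraries were far above all wild-type libraries for these 4 genes, and duplicates lay close together. The log2 differences were 4.48 (SE 0.091) for Irx5, 4.10 (SE 0.058) for Irx3, 3.55 (SE 0.112) for Irx1 and 2.72 (SE 0.144) for Irx2, with limma adjusted p-values from 6.59e-20 to 4.58e-12. These 4 of 4 members compare with 60.5% of all tested genes called in either direction and 36.5% called higher, and with a median difference over all tested genes of 0.07. Irx4 read 0.20 and 0.26 against 0.08 and 0.16 FPKM.

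At day 6, the contrast on which the family was singled out, the knockout averaged 149 FPKM of Irx1 against 2.03 in the wild type and 103 FPKM of Irx2 against 1.95. Irx3 averaged 96.8 against 4.32 FPKM, Irx5 68.9 against 1.06 FPKM and Irx4 1.12 against 0.095 FPKM. Irx6 averaged 0.215 FPKM in the knockout and was listed at 0 in both wild-type libraries.

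Irx3, Irx5 and Irx6 lie on chromosome 8, whose genes as a whole read higher in the knockout. The median difference of the 856 other tested genes of chromosome 8 was close to 0 in stem cells (0.005), 0.24 on day 2, 0.34 on day 4 and 0.35 on day 6, while the median over all tested genes lay between -0.04 and 0.09. Taken from that median, the difference at day 2 was 1.5 for Irx3 and 0.63 for Irx5, and at day 4 it was 3.76 and 4.15. Both genes thus remained far above the chromosome at day 4, where the 95th percentile of its other genes was 1.21. At day 2 that percentile was 1.02, below the difference of 1.74 for Irx3 but above that of 0.87 for Irx5. On chromosome 13, which holds the other cluster, the median of 656 genes was between -0.08 and 0.07 over the 4 days.

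**Figure D2:**
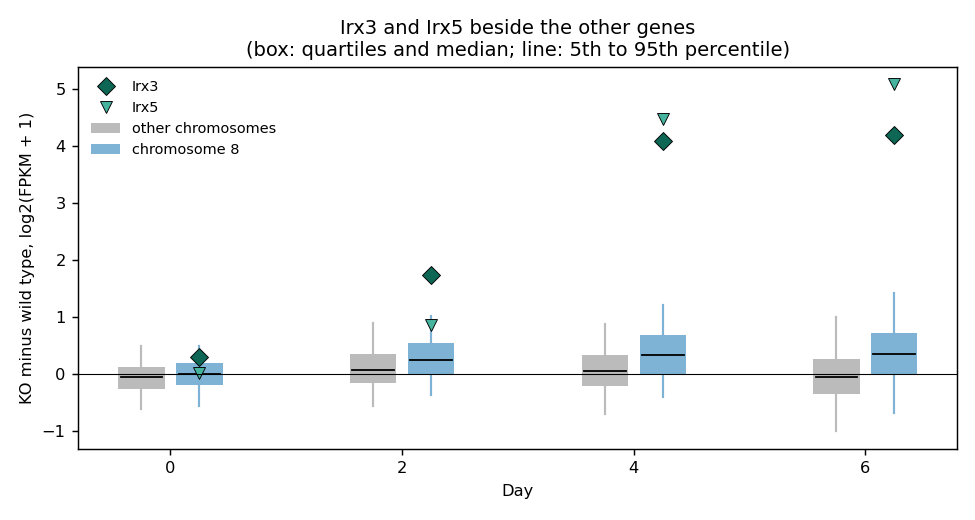
Difference between knockout and wild type in log2(FPKM + 1) (vertical axis) against day of culture for Irx3 and Irx5 (markers), beside the other tested genes of chromosome 8 and the genes of other chromosomes (boxes: quartiles and median; lines: 5th to 95th percentile). At day 4 Irx3 and Irx5 stand at 4.10 and 4.48, while the median of chromosome 8 is 0.34.

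Within the knockout, Irx3 and Irx5 were near their highest level by day 4, and Irx1 and Irx2 reached theirs at day 6. Between days 0 and 2, Irx3 rose by 1.55 (limma adjusted p = 1.11e-14), Irx5 by 0.89 (adjusted p = 5.61e-08) and Irx2 by 0.57 (adjusted p = 0.00185), which was 3 of 4 members against 65.6% of all tested genes and 37.2% called higher. The Irx2 call was lost in a fit of these groups alone (adjusted p = 0.0514). Irx1 read 0.30 and 0.60 FPKM at day 0 and 0.71 and 0.68 FPKM at day 2 (adjusted p = 0.0757), and it was called without the second day 0 library (adjusted p = 0.014). Between days 2 and 4 the change was 4.56 for Irx5, 4.20 for Irx1, 4.16 for Irx3 and 2.30 for Irx2, with limma adjusted p-values from 7e-21 to 4.74e-11, 4 of 4 members against 64.2% of all tested genes and 35.5% called higher. Between days 4 and 6, given without a test, Irx1 went from 30.1 to 149 FPKM and Irx2 from 17.5 to 103 FPKM. Irx3 stood at 95.6 and 96.8 FPKM, with overlapping libraries, and Irx5 at 53.6 and 68.9 FPKM.

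The fusion line without Dex carries METTL3 that the labels place in the cytosol. It was compared with the knockout, whose libraries the comparison with the wild type also uses. At day 0, Irx3 and Irx5 were slightly higher in the fusion line, by 0.18 and 0.26, with limma adjusted p-values of 0.0163 and 0.0251. That was 2 of 4 members against 49.1% of all tested genes and 19.3% called higher. Both calls were lost without the first knockout library or the second fusion library (adjusted p from 0.115 to 0.199), and in a fit of these groups alone (adjusted p = 0.138 and 0.066).

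At day 2 the direction was the opposite, with Irx2, Irx3 and Irx5 lower in the fusion line, 3 of 4 members against 37.0% of all tested genes and 22.2% called lower. Irx3 read 2.78 and 2.98 FPKM against 4.67 and 4.13 in the knockout, a difference of -0.48 (limma adjusted p = 3.43e-06). The differences of Irx2, -0.46 (adjusted p = 0.016), and Irx5, -0.355 (adjusted p = 0.00484), were not called without the second knockout library (adjusted p = 0.194 and 0.083) or in a fit of these groups alone (adjusted p = 0.0966 and 0.0642).

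At day 4, 4 of 4 members were lower in the fusion line without Dex than in the knockout, while 26.7% of all tested genes were called and 17.0% were called lower. Irx5 read 26.4 and 25.1 FPKM against 53.8 and 53.5, a difference of -1.03 (SE 0.091, limma adjusted p = 1.74e-07). Irx3 read 59.5 and 57.6 against 95.1 and 96.0 FPKM, a difference of -0.70 (adjusted p = 7.25e-08). Irx2 read 10.97 and 10.31 against 17.8 and 17.3 FPKM, a difference of -0.67 (adjusted p = 0.00173).
For all 3 genes the fusion libraries lay below the knockout libraries. Irx1 read 23.1 and 23.9 against 31.1 and 29.2 FPKM, a difference of -0.35 (adjusted p = 0.0271). The Irx1 call was lost without any 1 of the 4 libraries (adjusted p from 0.0591 to 0.154), with a pseudocount of 0.1 (0.339), with no filter (0.0568) and after rescaling (0.0577). At day 6, without a test, the knockout mean was 3.54 times that of the fusion line without Dex for Irx1, 2.92 times for Irx2, 3.98 times for Irx3 and 4.27 times for Irx5.

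In the fusion line without Dex the clusters parted after day 4. Between days 4 and 6, Irx1 went from 23.1 and 23.9 to 40.9 and 43.1 FPKM and Irx2 from 10.97 and 10.31 to 35.4 and 35 FPKM. Irx3 went from 59.5 and 57.6 to 24.3 and 24.4 FPKM, and Irx5 from 26.4 and 25.1 to 15.2 and 17 FPKM. No day 4 library overlapped a day 6 library for any of the 4 genes.
Irx1 rose by 0.81 (SE 0.112, limma adjusted p = 2.61e-06) and Irx2 by 1.64 (SE 0.144, adjusted p = 4.97e-09). Irx3 fell by 1.23 (SE 0.058, adjusted p = 3.62e-13) and Irx5 fell by 0.65 (SE 0.091, adjusted p = 3.63e-06). These were 4 of 4 members, against 67.9% of all tested genes called, 36.8% higher and 31.1% lower. All 4 calls held without any 1 of the 4 libraries. In the earlier steps of this line, between days 0 and 2, Irx3 rose by 0.90 and Irx5 by 0.27, with limma adjusted p-values of 4.81e-11 and 0.0131, 2 of 4 members against 67.9% of all tested genes, 41.4% called higher and 26.5% lower. The Irx5 call was lost without the first day 0 library (adjusted p = 0.0952) and after rescaling (adjusted p = 0.0571). Between days 2 and 4, Irx1, Irx3, Irx5 and Irx2 rose by 4.01, 3.94, 3.89 and 2.09, with limma adjusted p-values from 1.41e-20 to 2e-10, 4 of 4 members against 60.8% of all tested genes and 33.7% called higher.

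Dex in the fusion line moves METTL3 to the nucleus, per the labels, and the comparison with and without it uses no library of the contrast that singled out the family. At day 0 Irx3 was higher with Dex, 1.38 and 1.64 FPKM against 0.99 and 1.17, a difference of 0.27 (limma adjusted p = 0.000791), and was the only call among the 4 members, against 43.4% of all tested genes and 27.3% called higher. It was not called in a fit of these groups alone (adjusted p = 0.109). At day 2 the only call was again Irx3, 2.45 and 2.55 FPKM with Dex against 2.78 and 2.98 without, a difference of -0.15 (adjusted p = 0.0443), against 44.3% of all tested genes and 31.5% called lower. That call was lost with a pseudocount of 0.1 (adjusted p = 0.0676), with no filter (0.0745), after rescaling (0.409), in a fit of these groups alone (0.163), and without the second library without Dex (0.244) or either library with Dex (0.185 and 0.078).

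At day 4 the abundant members were clearly lower with Dex. Irx3 read 8.67 and 8.80 FPKM with Dex and 59.5 and 57.6 without it, so that the mean without Dex was 6.70 times higher. Irx5 read 3.91 and 4.30 against 26.4 and 25.1 FPKM, 6.28 times. The genes of the other cluster differed less, Irx1 at 9.98 and 8.19 against 23.1 and 23.9 FPKM, 2.58 times, and Irx2 at 3.54 and 4.08 against 10.97 and 10.31 FPKM, 2.79 times.
No library with Dex reached a library without it for these 4 genes. The log2 differences were -2.61 (SE 0.058, limma adjusted p = 7.97e-17) for Irx3, -2.39 (SE 0.091, adjusted p = 3.99e-13) for Irx5, -1.28 (SE 0.112, adjusted p = 3.08e-08) for Irx1 and -1.28 (SE 0.144, adjusted p = 8.22e-07) for Irx2. These 4 of 4 members compare with 40.2% of all tested genes called and 21.9% called lower. Irx4 read 0.23 and 0.19 with Dex against 0.12 and 0.14 FPKM without it. No alternative in the processing and no left-out library removed any of the 4 calls.

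At day 6 all 4 members were lower with Dex, against 42.7% of all tested genes called and 19.0% called lower. Irx2 read 8.32 and 7.52 FPKM with Dex and 35.4 and 35 without it, 4.44 times higher without Dex. Irx1 read 11.16 and 11.98 against 40.9 and 43.1 FPKM, 3.63 times. Irx5 read 5.54 and 5.03 against 15.2 and 17 FPKM, 3.05 times, and Irx3 9.53 and 9.91 against 24.3 and 24.4 FPKM, 2.50 times.
The libraries did not overlap for any of these genes. Unlike at day 4, Irx1 and Irx2 were now apart by more than Irx3 and Irx5. The log2 differences were -2.02 (SE 0.144) for Irx2, -1.77 (SE 0.112) for Irx1, -1.45 (SE 0.091) for Irx5 and -1.24 (SE 0.058) for Irx3, with limma adjusted p-values from 3.54e-12 to 1.32e-09. Irx4 read 0.35 and 0.30 against 0.69 and 0.53 FPKM.

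The change of the Dex difference between days was tested itself. From day 2 to day 4 it became more negative for Irx3, Irx5, Irx1 and Irx2, by 2.46, 2.29, 1.32 and 1.04, against 31.3% of all tested genes called and 10.5% called lower. From day 4 to day 6 it shrank for Irx3, by 1.37 (limma adjusted p = 1.89e-10), and for Irx5, by 0.95 (adjusted p = 8.56e-06). Over the same step it went further below 0 for Irx2 and Irx1, by -0.75 and -0.49, with limma adjusted p-values of 0.00607 and 0.0181. All 4 members were called, against 41.2% of all tested genes, 24.2% higher and 17.0% lower. The Irx1 and Irx2 calls were lost with a pseudocount of 0.1 (adjusted p = 0.306 and 0.0829), and that of Irx1 also without 1 of 4 libraries (adjusted p from 0.0531 to 0.106). These 4 were the first library without Dex at day 4, the second without Dex at day 6, and the first libraries with Dex at days 4 and 6.

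**Figure D3:**
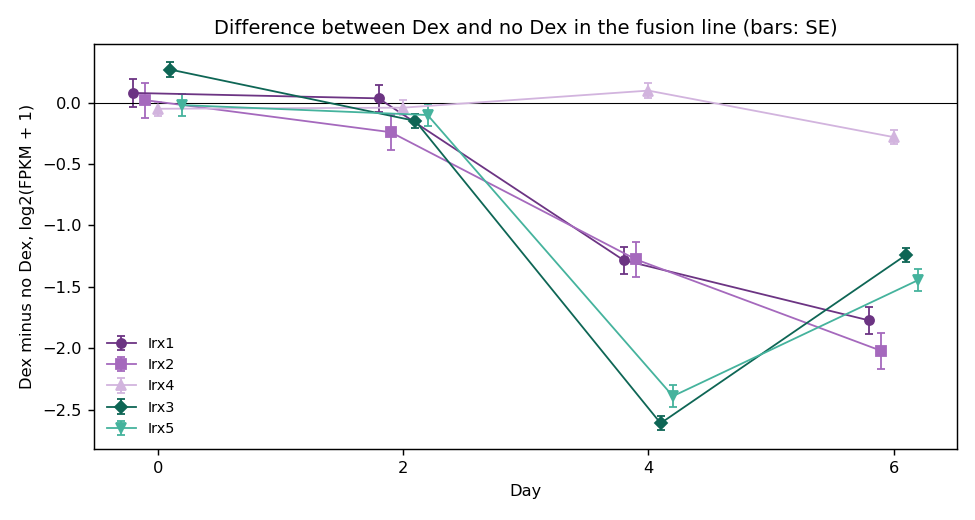
Difference between cultures with and without Dex in the fusion line, in log2(FPKM + 1) (vertical axis), against day of culture for Irx1 to Irx5, with bars of 1 SE. Irx3 and Irx5 are farthest below 0 at day 4, at -2.61 and -2.39, and Irx1 and Irx2 at day 6, at -1.77 and -2.02.

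With Dex, Irx1, Irx2, Irx3 and Irx5 were above wild-type levels at day 4. This comparison shares the wild-type libraries with that of the knockout. At day 0, Irx3 (1.38 and 1.64 against 0.51 and 0.46 FPKM) and Irx5 were higher with Dex than in the wild type by 0.76 and 0.27, with limma adjusted p-values of 2.88e-09 and 0.0204, 2 of 4 members against 49.8% of all tested genes and 19.0% called higher. The Irx5 call was lost without the second wild-type library (adjusted p = 0.108) or either Dex library (0.0814 and 0.0607). At day 2, Irx3 was higher by 1.12 (adjusted p = 3.6e-11) and Irx5 by 0.42 (adjusted p = 0.00175), 2 of 4 members against 29.4% of all tested genes and 12.2% called higher. The Irx5 call was lost in a fit of these groups alone (adjusted p = 0.0829) and not held without the second Dex library (adjusted p = 0.05).

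At day 4, Irx1 read 9.98 and 8.19 FPKM with Dex against 1.74 and 1.58 in the wild type, Irx5 3.91 and 4.30 against 1.33 and 1.57, Irx3 8.67 and 8.80 against 4.40 and 4.91, and Irx2 3.54 and 4.08 against 1.38 and 2.31. All libraries with Dex were above all wild-type libraries for these 4 genes. The differences were 1.92 for Irx1, 1.06 for Irx5, 0.79 for Irx3 and 0.78 for Irx2, with limma adjusted p-values from 7.7e-11 to 0.000199, 4 of 4 members against 44.7% of all tested genes and 25.7% called higher. The Irx2 call was lost in a fit of these groups alone (adjusted p = 0.0643). The median of chromosome 8 genes in this comparison was 0.31, and taken from it the difference was 0.47 for Irx3 and 0.75 for Irx5. The 95th percentile of these genes was 0.824, above the difference of Irx3 and below that of Irx5. At day 2 that percentile was 0.436, above the difference of 0.417 for Irx5. At day 6, without a test, the mean with Dex was 5.70 times the wild type for Irx1, 4.99 times for Irx5, 4.06 times for Irx2 and 2.25 times for Irx3.

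With Dex the 4 members rose less between days 2 and 4 than in the knockout or in the fusion line without Dex. Irx1, Irx2 and Irx5 rose more than in the wild type over that step. Between days 0 and 2, Irx3 rose by 0.48 (limma adjusted p = 5.26e-07), 1 of 4 members against 60.6% of all tested genes, 29.2% called higher and 31.4% lower. Irx5 was called as well with a pseudocount of 0.1 (adjusted p = 0.0435) or without the first library of day 2 (adjusted p = 0.015). Between days 2 and 4 all 4 members rose, by 2.69 for Irx1, 1.60 for Irx5, 1.48 for Irx3 and 1.05 for Irx2, with limma adjusted p-values from 2.95e-14 to 2.52e-06, against 66.7% of all tested genes and 40.9% called higher. Between days 4 and 6, Irx2 went from 3.54 and 4.08 to 8.32 and 7.52 FPKM and rose by 0.89 (adjusted p = 1.92e-05). Irx1, Irx5 and Irx3 also passed the test over this step, with small rises of 0.32, 0.30 and 0.14 (adjusted p = 0.0164, 0.00736 and 0.0421), making 4 of 4 members against 65.1% of all tested genes and 37.4% called higher. These 3 calls were lost with a pseudocount of 0.1 (adjusted p = 0.228, 0.0879 and 0.121), and without 1 library the count was 2 in each of the 4 cases. Irx3 was also lost with no filter (0.0656) and after rescaling (0.207), and Irx3 and Irx1 in a fit of these groups alone (0.0616 and 0.0852). With a library left out, Irx3 was lost in all 4 cases (adjusted p from 0.0585 to 0.191), Irx1 without the second library of day 4 (0.214) or day 6 (0.0996), and Irx5 without the first library of day 4 (0.0713) or day 6 (0.0749).

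Summed over its genes, each cluster had its own course. In the knockout at day 4, Irx3, Irx5 and Irx6 together reached 149 and 150 FPKM, and Irx1, Irx2 and Irx4 reached 49.1 and 46.7 FPKM. At day 6 the first sum was 164 and 167 FPKM and the second 251 and 254 FPKM. The share of the family's FPKM that came from Irx1, Irx2 and Irx4 thus went from 24.8% and 23.8% to 60.4% and 60.3%.
In the fusion line without Dex that share went from 28.4% and 29.3% at day 4 to 66.0% and 65.4% at day 6. With Dex it was already 52.1% and 48.7% at day 4 and was 56.7% and 56.9% at day 6. In the wild type it was 35.7% and 38.3% at day 4 and 47.4% and 38.5% at day 6. The shift toward Irx1, Irx2 and Irx4 was thus widest in the knockout and in the fusion line without Dex. These shares are descriptions with no test.

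**Figure D4:**
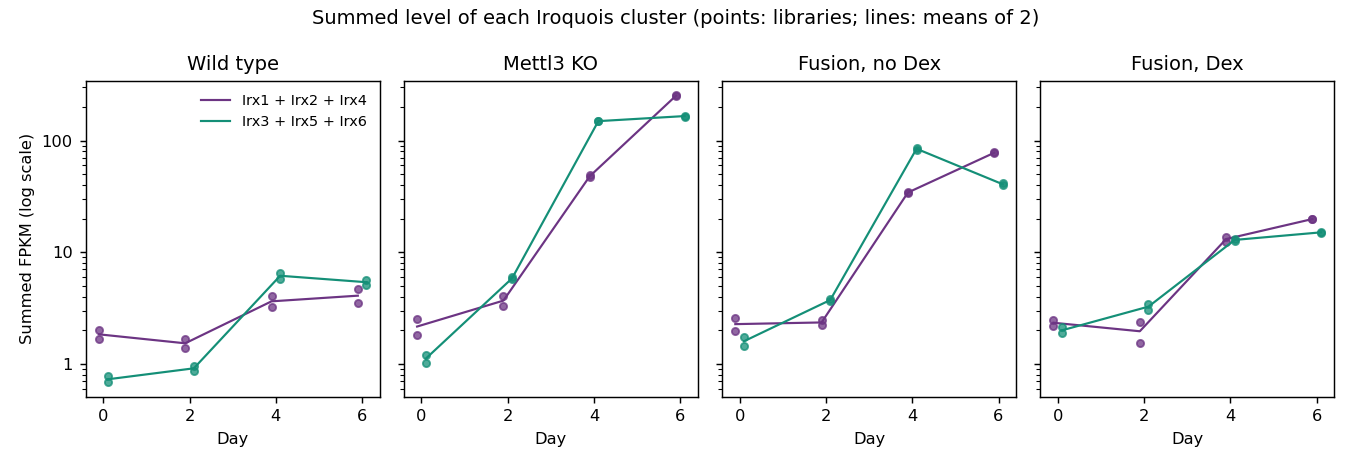
Summed FPKM of Irx1, Irx2 and Irx4 (chromosome 13) and of Irx3, Irx5 and Irx6 (chromosome 8) on a log scale (vertical axis) against day of culture, for each kind of culture, with points for libraries and lines through means of 2. The chromosome 8 sum is the higher at day 4 and the lower at day 6 in the knockout, 149 and 150 against 49.1 and 46.7 FPKM, then 164 and 167 against 251 and 254 FPKM, and likewise in the fusion line without Dex.

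Irx4 and Irx6 were near the limit of these libraries. Outside the knockout at day 6, Irx4 lay between 0.02 and 0.69 FPKM, and its median over all libraries corresponded to about 15 fragments. Both genes were tested in a fit with no filter, over 34331 genes, where no single group admits a gene. There Irx4 was higher in the knockout than in the wild type at day 2 by 0.21 (limma adjusted p = 0.00178), against 19.7% of genes called higher. It was lower with Dex than without at day 6 by -0.28 (adjusted p = 0.000172, against 9.75% called lower), and without Dex it rose by 0.51 between days 4 and 6 (adjusted p = 3.34e-08, against 20.8% called higher). These 3 calls held without any 1 of their 4 libraries. Other Irx4 calls of this fit were mixed. Between days 2 and 4 with Dex Irx4 rose, as the abundant members did, by 0.184 (limma adjusted p = 0.00402). It also rose between days 4 and 6 with Dex, by 0.131 (adjusted p = 0.0361). At day 4 it was higher in the knockout than in the wild type, by 0.136 (adjusted p = 0.034). The latter calls, of days 4 to 6 and of day 4, were lost without some single libraries. Between days 0 and 2 Irx4 changed by -0.291 without Dex, -0.282 with Dex and -0.139 in the wild type (limma adjusted p = 4.43e-05, 7.47e-05 and 0.026). In the fit with the filter 26.5%, 31.4% and 36.0% of tested genes were called lower over these steps. The wild-type call was lost without 3 of its 4 libraries in turn and rested on 0.02 and 0.05 FPKM at day 2. Irx3 rose between days 0 and 2 in the fusion line. At day 0 Irx4 was higher without Dex than in the knockout by 0.22 (adjusted p = 0.00139), as Irx3 and Irx5 were. Irx6 did not reach 1 FPKM. It read 0.17 and 0.24 FPKM in the knockout at day 4, 0.16 in both libraries of the fusion line without Dex, and 0.04 and 0.03 FPKM with Dex, and 0.04 FPKM in both wild-type libraries. Its knockout libraries were thus above those of the other groups at day 4, and the fusion line without Dex came close. With no filter, the limma adjusted p for Irx6 was 1e-06 for knockout against wild type at day 4 (18.5% called higher) and 5.94e-05 for Dex against no Dex at day 4 (10.0% called lower). Both calls held without any 1 of the 4 libraries. The longest identical run in the family joins Irx6 to Irx3, which was the most abundant member at day 4 in the knockout, the wild type and the fusion line without Dex, and came after Irx1 with Dex. The part of reads from Irx3 in these Irx6 values was not tested.

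Over the 16 group means of log2(FPKM + 1), which share the lines and the days, Irx3 and Irx5 were the most alike pair of members (Pearson r = 0.986), followed by Irx1 and Irx2 (0.966) and Irx1 and Irx5 (0.965). Irx4 was the least like the others, with r from 0.535 with Irx6 to 0.833 with Irx2. Among 10715 other genes, those most like Irx1 were Cited2 (0.978), Foxb1 (0.977), Wnt1 (0.967), Barhl1 (0.964) and Fam181b (0.963). Irx2 was closest to Dmbx1 (0.988), a homeobox gene of the midbrain, then to Pax3, Galnt7, Barhl1 and Apcdd1 (0.951 to 0.959).
Irx3 was closest to Fam181b, Slc45a3, Foxb1, Fhdc1 and Crnde (0.942 to 0.960), and Irx5 to Cited2, Crnde, Foxb1, Fam181b and Ppp1r16b (0.949 to 0.965). Crnde is a noncoding RNA gene next to Irx5. Irx4 was closest to Neurog1, Wnt3, Pax7, Fzd10 and Basp1 (0.911 to 0.918). Wnt1, a ligand of the dorsal midline and of the border between midbrain and hindbrain, averaged 58.7 FPKM in the knockout, 39.3 without Dex, 15.1 with Dex and 1.48 in the wild type at day 6. Dmbx1 averaged 50.9, 14.1, 3.74 and 0.29 FPKM in the same groups. Both genes were picked for their likeness over these same groups, so their order here is not a finding.

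Six3 is the eye field factor known to oppose Irx3. Within day 4 and within day 6, Six3 was lower in the knockout and in the fusion line without Dex, where Irx3 was higher. At day 4 Six3 averaged 7.13 FPKM in the knockout, 33.8 in the fusion line without Dex, 127 with Dex and 74.0 in the wild type, where Irx3 averaged 95.6, 58.5, 8.74 and 4.66 FPKM. At day 6 Six3 averaged 0.635, 11.4, 49.6 and 132 FPKM, and Irx3 96.8, 24.3, 9.72 and 4.32 FPKM. Within each of these days the order of the groups was the reverse for Six3 and Irx3, apart from Dex and the wild type at day 4. This did not hold over time within a line. Between days 4 and 6 without Dex, Six3 fell from 33.8 to 11.4 FPKM and Irx3 from 58.5 to 24.3 FPKM. With Dex, Six3 fell from 127 to 49.6 FPKM, while Irx3 averaged 8.74 and 9.72 FPKM. Six3 was higher with Dex than without by 1.88 at day 4 (SE 0.07, limma adjusted p = 2.62e-13) and by 2.03 at day 6 (SE 0.07, adjusted p = 4.01e-14).

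Of 16 tested brain region genes of a list of 19, 8 were higher and 3 lower with Dex at day 4, and 5 higher and 9 lower at day 6. Their medians were 0.11 and -0.28 against -0.01 and 0.01 over all tested genes. Of all tested genes, 40.2% were called at day 4 and 21.9% called lower, and 42.7% and 19.0% at day 6. The counts of the lists below stand beside the same shares. Of the 12 other TALE homeobox genes (Meis, Pbx, Pknox, Tgif and Mkx genes), 1 was higher and 4 lower at day 4, and 4 higher and 2 lower at day 6, with medians of -0.07 and -0.03. Meis2, a partner of homeodomain factors, averaged 4.56 FPKM with Dex and 6.47 without at day 4 (a difference of -0.43, adjusted p = 0.00245), and 20.9 and 14.2 FPKM at day 6 (0.52, adjusted p = 0.000353). Its direction at day 6 was thus opposite to that of the Iroquois genes. Among genes within 1 Mb of the Irx1, Irx2 and Irx4 cluster, 15 of 44 were tested, of which 2 were higher and 2 lower with Dex at day 4. Among those around the Irx3, Irx5 and Irx6 cluster, 11 of 73 were tested, of which 0 were higher and 3 lower at day 4, with a median of -0.03. That count is near the 21.9% called lower among all tested genes. Crnde was among the 3, at 2.63 FPKM with Dex and 6.59 without (a difference of -1.13, SE 0.273, adjusted p = 0.00264), as were Mmp2 at 27.9 and 34.9 FPKM (-0.31, adjusted p = 0.00633) and Fto at 29.9 and 34.9 FPKM (-0.22, adjusted p = 0.000199). The differences of Irx3 and Irx5 at that day, -2.61 and -2.39, were larger than those of these neighbours.

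Among the marker lists of cell types, only the neural crest and border sum had the order of the abundant members at day 6. Pax3 and Pax7 of that list were also picked above for their likeness to Irx2 and Irx4, so that order is not independent of this choice. The summed neural crest and neural plate border markers (Sox10, Foxd3, Tfap2a, Pax3, Pax7, Snai2, Msx1) reached 134 to 137 FPKM in the knockout at day 6, 78.4 to 80.3 without Dex, 34.8 to 35.3 with Dex and 5.52 to 5.76 in the wild type, with 7 of 7, 7 of 7, 7 of 7 and 1 of 7 at 1 FPKM or more. At day 4, when Irx3 and Irx5 were already near their highest, the same sum was 19.4 to 20.2, 16.3 to 16.4, 13.6 to 14.8 and 9.20 to 9.28 FPKM. The summed eye field and retina markers were 218 FPKM in the knockout, 85.6 to 86.1 without Dex, 334 to 340 with Dex and 556 to 587 FPKM in the wild type at day 6, with 2, 3, 5 and 6 of 6 markers at 1 FPKM or more and none at 0 in a group. The part of either list in the Iroquois values was not tested. The summed midbrain and hindbrain markers (En1, En2, Pax2, Gbx2, Hoxa2, Hoxb1, Egr2) went the other way at day 6, at 4.13 to 4.14 FPKM in the knockout, 3.21 to 3.40 without Dex, 4.49 to 5.37 with Dex and 42.8 to 43.8 in the wild type, with 2, 0, 1 and 2 of 7 at 1 FPKM or more. Pax2 made up most of the wild-type sum, at 39.5 FPKM against 0.38 in the knockout, and Hoxb1 was listed at 0 in all but the fusion line without Dex. At day 4 that sum was 16.3 to 16.5 FPKM in the knockout, 12.8 to 12.9 without Dex, 13.6 to 13.8 with Dex and 4.20 to 4.62 in the wild type.
The endoderm markers (Sox17, Foxa2, Gata6, Sox7) were lower in the knockout on every day, at 1.59 to 2.23 against 12.4 to 13.3 FPKM in the wild type at day 0 and 0.51 to 0.76 against 30.6 to 31.9 FPKM at day 6. At day 6 they read 0.41 to 0.66 FPKM without Dex and 3.94 to 4.56 FPKM with it, with 0, 0, 1 and 4 of 4 at 1 FPKM or more in the knockout, without Dex, with Dex and in the wild type. Neural progenitor markers (Sox1, Pax6, Sox3, Nes, Fabp7) summed to 552 FPKM in the knockout, 591 to 594 without Dex, 581 to 585 with Dex and 382 to 393 in the wild type at day 6, with all 5 at 1 FPKM or more. The part of these lists in the Iroquois values was not tested either. Retinal bipolar cell markers, for cells in which Irx5 and Irx6 are known, summed to 0.39 to 1.03 FPKM in all day 6 libraries, with 0 of 4 markers at 1 FPKM or more. Cardiac markers, for the tissue of Irx4, summed to 3.31 to 3.98 FPKM in the knockout at day 6, below 12.1 to 13.7 in the wild type.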

How the data were processed

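Levels are FPKM as deposited by the authors in a table with 1 column per library, rounded to 2 decimals. STAR, Cuffdiff and mm10 are named in the submitters' processing notes without versions, and neither the counting of strands nor that of fragments that fit several genes is given in the sources used here. All 32 columns matched a sample's labels. Where GENCODE M21 gives a gene only 1 transcript, low FPKM fall on steps of whole fragments, and these steps gave the depth. In each library 80.4% to 92.4% of such values came within 0.2 of a whole number, where evenly spread values would give 40%. Limits from this depth cover counting error only.

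Tests used limma 3.58.1 in R 4.3.3 (lmFit, contrasts.fit, eBayes with a mean-variance trend) on log2(FPKM + 1). A fold on that scale understates the change of low genes. All 32 libraries entered 1 fit of 16 group means with 16 residual degrees of freedom. The 16276 genes with at least 1 FPKM in at least 2 libraries were tested, and p-values, two-sided, were adjusted over all of them (Benjamini-Hochberg) in each of 25 comparisons, with calls under 0.05. A further 5 comparisons were described without a test. Irx4 passed this filter only through the knockout at day 6, so it is left out of the counts, and Irx4 and Irx6 were tested in a fit with no filter, choices made after seeing the data. The script was tested on simulated data.

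Named genes are the 6 members, the 5 genes most correlated with each tested member over 16 group means (at least 1 mean of 5 FPKM, predicted genes left out), members of the lists for brain regions, TALE genes and cluster neighbours as examples, and Mettl3. Within those lists the examples Six3, Meis2, Crnde, Mmp2 and Fto were chosen after their values were seen, and Irx3os was singled out as a neighbour overlapping Irx3. A further marker list is not reported here. The members and lists were chosen with earlier results of these data known. Alternatives were a pseudocount of 0.1, other filters, median-of-ratios rescaling, a replicate block, fits restricted to the compared libraries, each library left out, and changes taken from the chromosome 8 median.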

Additional observations from a re-analysis of the deposited data

Results flagged for a closer look

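The difference between cultures with and without Dex was not the same on all days, by a test of the change itself on the log2(FPKM + 1) scale with limma. From day 2 to day 4 it moved by -1.32 for Irx1 (adjusted p = 4.23e-06), -1.04 for Irx2 (adjusted p = 0.000675), -2.46 for Irx3 (adjusted p = 7.36e-14) and -2.29 for Irx5 (adjusted p = 2.45e-10), in each case with all libraries with Dex below all libraries without it at day 4. From day 4 to day 6 it moved the other way for Irx3, by 1.37 (adjusted p = 1.89e-10), and for Irx5, by 0.947 (adjusted p = 8.56e-06). Over that step it moved by -0.49 for Irx1 (adjusted p = 0.0181) and -0.746 for Irx2 (adjusted p = 0.00607). These 2 calls were lost with a pseudocount of 0.1 (adjusted p = 0.306 and 0.0829). Irx4 moved by -0.378 (adjusted p = 0.00112) in the main fit, which it entered only because of its level in the knockout at day 6. With no filter its adjusted p was 0.000306, and its difference went from above 0 at day 4 to below 0 at day 6. The sign over the last step was thus positive for Irx3 and Irx5 on chromosome 8 and negative for Irx1 and Irx2 on chromosome 13. The day 4 libraries enter both steps, so the steps are not independent.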

How the results depend on the processing

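Counts below include Irx4 unless stated, so their limma baseline is the main fit over 5 members, not the counts over 4 given above. From day 0 to day 2 that baseline was 1 in the wild type (Irx4) and 2 with Dex. It was 4 with Dex from day 4 to day 6, and 5 for the change of the Dex difference over that step. On day 0 as on day 2, it was 3 for the fusion line without Dex compared with the knockout. It was 1 on both days for Dex compared with no Dex. For cultures with Dex compared with the wild type it was 3 on day 0 and 2 on day 2. Under the alternatives, counts stayed within 1.5 times the baseline, apart from the following. A pseudocount of 0.1 gave 0 for Dex against no Dex at day 2, 2 for day 0 to day 2 in the wild type, 1 for day 4 to day 6 with Dex and 3 for the Dex effect at day 6 against day 4. No filter on low values gave 0 for Dex against no Dex at day 2. A filter on a mean of 1 FPKM, which drops Irx4, gave 0 for day 0 to day 2 in the wild type and 1 with Dex. Rescaling gave 0 for Dex against no Dex at day 2 and 2 for day 0 to day 2 in the wild type. Fits of the compared groups alone, with few residual degrees of freedom, gave 1 for no Dex against KO at days 0 and 2, 0 for Dex against no Dex at days 0 and 2, 1 for Dex against WT at day 2 and 2 for day 4 to day 6 with Dex. With each library left out, where the lone sample is assumed to vary like the other groups, counts were 0 for day 0 to day 2 in the wild type, 2 for day 4 to day 6 with Dex, 1 to 3 for no Dex against KO at days 0 and 2, 1 to 2 for Dex against WT at days 0 and 2, and 0 to 1 for Dex against no Dex at day 2. Where no cause is named, the cause was not tested. Replicate numbers did not pair the groups, since the differences between replicates correlated at -0.09 to 0.13 over 120 pairs of groups. Leaving Irx4 out of the count, a choice made after seeing the data, gave 0 for day 0 to day 2 in the wild type and 1 with Dex. The replicate block gave 0 for day 0 to day 2 in the wild type, where Irx4 had -0.139 (adjusted p = 0.0513), and changed no other call.

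Sign changes occurred only in uncalled differences of days 0 and 2. After rescaling, Irx2 had 0.065 for no Dex against KO and -0.031 for Dex against no Dex at day 0, and -0.001 for day 0 to day 2 without Dex. With each library left out, the ranges at day 0 for KO against WT were -0.036 to 0.208 (Irx2), 0 to 0.025 (Irx4) and -0.035 to 0.091 (Irx5). At day 0 they were -0.193 to 0.106 (Irx1) and -0.14 to 0.106 (Irx2) for no Dex against KO, and -0.103 to 0.144 (Irx2) and -0.067 to 0.03 (Irx5) for Dex against no Dex. At day 2 they were -0.145 to 0.216 (Irx1) and -0.224 to 0.024 (Irx5) for Dex against no Dex, and -0.075 to 0.286 (Irx1) for Dex against WT. From day 0 to day 2 they were -0.004 to 0.242 (Irx2) without Dex and -0.11 to 0.251 (Irx1) with Dex. Groups of 2 libraries and, for Irx4 and Irx6, few fragments limit what these data can show.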

Other observations

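The balance within each cluster also moved with time. The ratio of Irx1 to Irx2 in FPKM lay between 0.167 and 0.339 in all day 0 libraries, between 0.684 and 2.82 in the day 4 libraries and between 1.00 and 1.59 in the day 6 libraries, so Irx2 was the higher in stem cells. The ratio of Irx3 to Irx5 stayed above 1 in all 32 libraries, at 1.77 and 1.80 in the knockout at day 4 against 3.31 and 3.13 in the wild type, and at 1.39 and 1.43 against 4.90 and 3.50 at day 6. Irx3os, the antisense gene that overlaps Irx3, averaged 0.755 FPKM in the knockout at day 4, 0.425 in the fusion line without Dex, 0.225 with Dex and 0.175 in the wild type. At day 6 it averaged 0.85, 0.275, 0.07 and 0.08 FPKM in the same order. These values were not tested.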
